A study of Homo sapiens with 10 samples.

Results

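The genes described here encode the subunits of RNA polymerases I, II and III, the initiation factors particular to RNA polymerases I and III, and the TATA-binding protein TBP. Members were taken by symbol, as every probe set whose annotated gene starts with POLR1, POLR2 or POLR3 and 18 named factors from UBTF to GTF3C6. Of the 52 symbols that this gives, 47 were measured, out of 17492 genes in all. They divide into 11 particular to RNA polymerase I, 9 to RNA polymerase II, 20 to RNA polymerase III, and 7 shared between the enzymes. The other 5 symbols were not analysed here.

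All 10 arrays came from subcutaneous tumours that A375 cells, a widely used human melanoma line, formed in BALB/c nude mice. In 5 mice doxycycline in the drinking water switched on Omomyc in the tumour cells, and 5 mice received its vehicle. Treatment began at a tumour volume of 100 mm3 and tumours were excised after 7 days. Omomyc, an altered dimerisation domain of MYC, binds MYC and MAX and blocks MYC function. The labels give neither the age of the mice nor the promoter or clone of the Omomyc construct. No tumour received doxycycline without Omomyc, so the effects of the drug and of Omomyc cannot be told apart. Both groups rest on 1 cell line in a host that lacks mature T cells, and host RNA is part of the excised tissue. The labels call the arrays of a group biological replicas.

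RNA polymerase I makes the precursor of the large ribosomal RNAs in the nucleolus, RNA polymerase II makes messenger RNAs, and RNA polymerase III makes 5S ribosomal RNA, transfer RNAs and other short RNAs. The enzymes share a set of small subunits and TBP, and each has its own catalytic core and initiation factors. MYC is known to stimulate transcription by all 3 enzymes in growing cells, through the genes of their components and through contacts with their initiation factors.

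RNA of 5 members was lower and of 1 member higher in the doxycycline tumours. GTF3A, the factor that recruits RNA polymerase III to the 5S ribosomal RNA genes, fell by 2.21 on the log2 scale, a 4.64-fold difference. POLR3G, a subunit particular to RNA polymerase III, fell by 1.13. POLR2H, a subunit of all 3 enzymes, fell by 0.70, and the RNA polymerase I subunits POLR1E and POLR1B fell by 0.58 and 0.50. GTF3C2, a subunit of the factor that binds transfer RNA genes, rose by 0.60. A change here is the mean log2 expression value of the 5 doxycycline arrays minus that of the 5 vehicle arrays. It was called where the Benjamini-Hochberg adjusted p over all genes was under 0.05.

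The 6 called members are 12.8% of the 47, beside 11.0% of all 17492 genes. The 5 called lower are 10.6% of the members and the 1 called higher is 2.13%, beside 5.95% and 5.03% of all genes. The median change of the members was -0.05, with 29 below 0 and 18 above, and that of all genes was 0.02. The arrays of the groups did not overlap in 10 members, 8 lower and 2 higher with doxycycline, which is 21.3% of the members beside 11.8% of all genes. By enzyme, limma called 2 of 11 RNA polymerase I members lower and 0 higher (1 higher at an unadjusted p under 0.05), and 2 of 20 RNA polymerase III members lower and 1 higher. It called 0 of 9 RNA polymerase II members in either direction, of which 3 had an unadjusted p under 0.05 and 1 was called by the unmoderated test with unequal variances. One of the 7 shared members was called lower. The median changes were -0.05 for RNA polymerase I, -0.01 for RNA polymerase II, -0.09 for RNA polymerase III and 0.06 for the shared members. Differences between the enzymes were not tested.

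**Figure D1:**
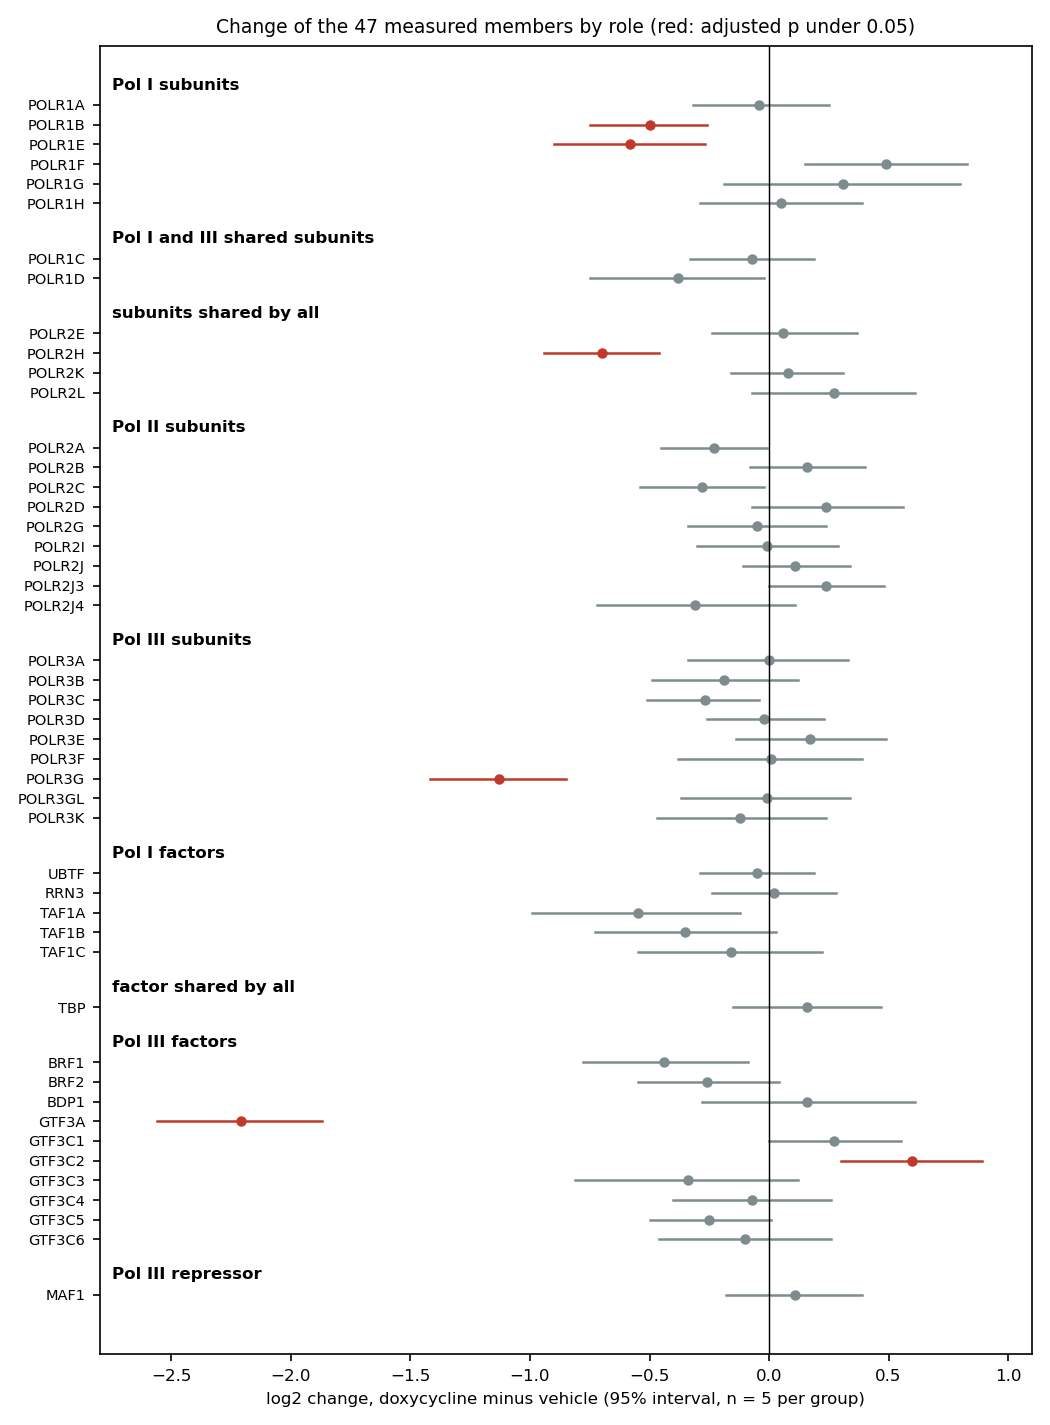
Log2 change, doxycycline minus vehicle (x axis), of each of the 47 measured members (y axis, by role). Points are changes and lines their 95% intervals with 5 arrays per group, and red marks an adjusted p under 0.05. GTF3A at -2.21 and POLR3G at -1.13 lie apart from the remaining members, whose changes run from -0.70 to 0.60.

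Within groups, correlations between arrays over all genes were 0.979 to 0.987 for vehicle and 0.965 to 0.985 for doxycycline, and between groups they were 0.955 to 0.974. The MYC probe set read 6.35 ± 0.21 (SD, n = 5) with vehicle and 7.69 ± 0.30 with doxycycline. It was higher on every doxycycline array (change 1.34, 95% interval 0.98 to 1.69, adjusted p = 0.000348). Whether it reads Omomyc, which derives from MYC, was not tested. Of 9 measured markers of the melanocyte lineage limma called 0 (2 at an unadjusted p under 0.05), and doxycycline array 5 stood apart in 3 of them. SOX10 read 7.19 to 7.60 with vehicle, 7.45 to 7.85 on doxycycline arrays 1 to 4 and 6.49 on array 5. S100B read 5.90 to 6.35, 7.21 to 7.48 and 5.06 in the same order, and MIA 8.04 to 8.57, 9.23 to 9.62 and 7.69. Array 5 also had the lowest mean correlation with its own group, 0.967, and its part in the results was not tested beyond leaving it out, under which all 6 calls among the members held. The pigment genes PMEL, MLANA and TYR were near the low end of the scale, at 3.23, 3.12 and 3.00 with vehicle. Averaged over 10 markers of macrophages and monocytes, the level was 4.12 to 4.40 on the vehicle arrays and 4.47 to 4.87 on the doxycycline arrays, without overlap. PTPRC, MRC1 and AIF1 of this list were also near the low end, at 2.30, 2.33 and 1.82 with vehicle. LYZ and CD14 were called higher, with the largest changes of the list, 1.28 and 0.79, and 1 of the 10 changes was below 0. The CD14 call was lost without vehicle arrays 1, 3 or 4 (adjusted p = 0.0638, 0.0524 and 0.0629), without doxycycline array 4 (0.056), without doxycycline arrays 4 and 5 (0.054), with the replicate number as a block (0.0564), with the mean of the host-cell markers as a covariate (0.0857) and with the unmoderated test (0.0707). The mean of 10 endothelial markers was 3.62 to 3.95 against 3.73 to 4.40. ROBO4 was the 1 called among them (change 0.89, adjusted p = 0.0208, groups overlapping), a call lost with that covariate (0.104), with the unmoderated test (0.0805) and without doxycycline arrays 4 and 5 (0.0956). The mean of 8 fibroblast and pericyte markers was 5.44 to 5.89 against 5.35 to 5.62, with 0 called and 5 at an unadjusted p under 0.05. These probe sets are for human genes, and how far they read the RNA of the mouse host was not tested. With the mean of the macrophage, endothelial and fibroblast markers as a covariate, called the host-cell covariate here, 4 of the 5 falls and the rise among the members stayed called, and POLR1B did not (adjusted p = 0.0668). Over all genes this covariate left 704 called lower and 687 higher, in place of 1041 and 880. Its macrophage part did not overlap between the groups, so it also takes up part of the group difference. Why single calls were lost with it was not tested. In bulk tissue, fewer cells of a type and less RNA per cell cannot be told apart.

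The promoters of the called members were searched for CACGTG, the E-box that MYC and MAX bind, from 250 bases before to 50 after the start in RefSeq's GRCh38.p14 table. The motif is its own reverse complement, so both strands give the same matches. A window was listed for 36 members, and 7 of these held the motif, 19.4% beside 8.77% of 27305 genes with a window and 10.8% of the 14129 tested genes with a window. The 7 are POLR1G, POLR3A, POLR3C, POLR3E, GTF3C2, GTF3C4 and GTF3C6. Of the 4 called members with a window, GTF3C2 held the motif, and GTF3A, POLR1B and POLR2H did not within these 300 bases. The called members POLR1E and POLR3G are named only. The 250 bases before the start are printed for GTF3C2, the one called member with a match, and for GTF3A, the member with the largest change, which was chosen after its values were seen. GTF3C2 lies on the minus strand, at chr2:27356765-27357014 of GRCh38.p14, and GTF3A on the plus strand, at chr13:27424369-27424618. Both read 5′ to 3′ along the gene, and capitals mark CACGTG, which begins 103 bases before the GTF3C2 start.
GTF3C2: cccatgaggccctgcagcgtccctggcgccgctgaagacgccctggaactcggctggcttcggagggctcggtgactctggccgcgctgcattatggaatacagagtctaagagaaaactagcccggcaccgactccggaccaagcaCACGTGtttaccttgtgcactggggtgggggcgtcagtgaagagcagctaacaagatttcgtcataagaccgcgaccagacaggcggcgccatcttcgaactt
GTF3A: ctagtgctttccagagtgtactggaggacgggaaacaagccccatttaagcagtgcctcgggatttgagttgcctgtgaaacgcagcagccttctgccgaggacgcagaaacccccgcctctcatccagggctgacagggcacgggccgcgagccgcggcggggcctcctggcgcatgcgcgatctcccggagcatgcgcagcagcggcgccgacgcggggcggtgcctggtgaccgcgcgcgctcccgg
A match is a description of these letters and no evidence of binding. The motif stood before a gene that rose, before 6 genes that were not called, and not in the window before the gene that fell most.

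GTF3A (probe set TC1300006683.hg.1) encodes TFIIIA, a zinc finger protein that binds both the internal promoter of the 5S ribosomal RNA genes and 5S ribosomal RNA itself. Vehicle arrays 1 to 5 read 9.81, 9.80, 9.96, 10.02 and 9.92, and doxycycline arrays 1 to 5 read 7.46, 7.45, 8.21, 7.84 and 7.48. All doxycycline arrays lay below all vehicle arrays, and the smallest gap between the groups was larger than the whole range of either. The means were 9.90 ± 0.09 and 7.69 ± 0.33 (SD, n = 5 each), a change of -2.21 with a 95% interval of -2.56 to -1.87 (adjusted p = 1.09e-05). The fall was called under all 22 alternative settings.

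TFIIIC is the complex of 6 subunits that binds the internal promoters of transfer RNA genes and, with TFIIIA, those of 5S genes. Among the TFIIIC subunits 1 was called, 16.7% beside 11.0% of all genes. Changes were above 0 in 2 and below 0 in 4, and differences between the subunits of TFIIIC were not tested. GTF3C2 (TC0200012073.hg.1), one of its subunits for the downstream promoter box, read 7.18, 6.75, 7.20, 7.24 and 7.39 on the vehicle arrays and 7.53, 7.81, 7.76, 7.80 and 7.86 on the doxycycline arrays. It was higher on every doxycycline array, and vehicle array 2 was the lowest of all. The change was 0.60, with an interval of 0.30 to 0.89 (means 7.15 ± 0.24 and 7.75 ± 0.13, adjusted p = 0.0148). This call was lost when doxycycline arrays 4 and 5 were both left out (0.54, adjusted p = 0.0594). The 5 other subunits were not called. GTF3C1, the largest, changed by 0.27 (adjusted p = 0.21), GTF3C5 by -0.25 (0.217), GTF3C3 by -0.34 (0.365), GTF3C6 by -0.10 (0.765) and GTF3C4 by -0.07 (0.827). GTF3C3 was uneven within the doxycycline group, at 5.91 on array 1 and 5.60 on array 4 but 6.55 to 6.76 on the others, against 6.53 to 6.74 with vehicle.

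TFIIIB, which places RNA polymerase III at the start site, is made of TBP, BDP1 and either BRF1 or, at U6-type promoters, BRF2. None of these was called, and BRF1 alone had an unadjusted p under 0.05. BRF1 read 6.12, 5.34, 5.82, 5.53 and 5.36 with vehicle and 5.20, 5.13, 5.32, 5.04 and 5.29 with doxycycline. The groups did not overlap, although vehicle array 2 was only just above doxycycline array 3, and the change of -0.44 had an interval of -0.78 to -0.09 (adjusted p = 0.104). BRF2 changed by -0.26 (adjusted p = 0.276), BDP1 by 0.16 (0.70) and TBP by 0.16 (0.557). BDP1 stood at 7.21 and 7.09 on doxycycline arrays 2 and 3 and at 6.29 to 6.44 on the other 3, which spans more than the vehicle range of 6.21 to 6.75. MAF1, the repressor that holds RNA polymerase III off its genes when nutrients are short, changed by 0.11 (interval -0.18 to 0.39, adjusted p = 0.692).

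POLR3G (TC0500008054.hg.1) encodes a subunit of the trimer that RNA polymerase III uses to engage its initiation factors, and is known to be high in stem cells and tumour cells. The vehicle arrays read 7.67, 7.51, 7.39, 7.79 and 7.53 and the doxycycline arrays 6.32, 6.48, 6.72, 6.50 and 6.21. The groups were well apart, the highest doxycycline array lying below the lowest vehicle array by more than the range of either group. The means were 7.58 ± 0.16 and 6.45 ± 0.19 (SD, n = 5 each), a change of -1.13 with an interval of -1.42 to -0.85 (adjusted p = 0.000236). The fall was called under all 22 alternatives.

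POLR3GL, the paralogue that takes the same place in the enzyme in most differentiated tissues, did not fall with it. POLR3GL read 5.94, 5.90, 5.73, 6.45 and 5.54 with vehicle and 6.00, 6.03, 5.90, 5.91 and 5.66 with doxycycline, so that the groups overlapped throughout. Its change was -0.01, and the interval of -0.37 to 0.34 does not reach the size of the POLR3G change. Its sign turned under some settings, with a value of 0.18 when host-cell markers were a covariate. The difference POLR3G minus POLR3GL on the same array was 1.73, 1.61, 1.66, 1.35 and 1.99 with vehicle and 0.32, 0.45, 0.82, 0.59 and 0.55 with doxycycline. It fell by 1.12 (means 1.67 ± 0.23 and 0.55 ± 0.18). An exact two-sided permutation test over 252 splits of the arrays gave p = 0.00794, the smallest that 5 against 5 can give. The pair was compared because its calls differed in these same values, so this p-value adds no support beyond the POLR3G call. Probe sets differ in response, so POLR3G minus POLR3GL tracks a shift between the groups and not the ratio of the RNAs.

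**Figure D2:**
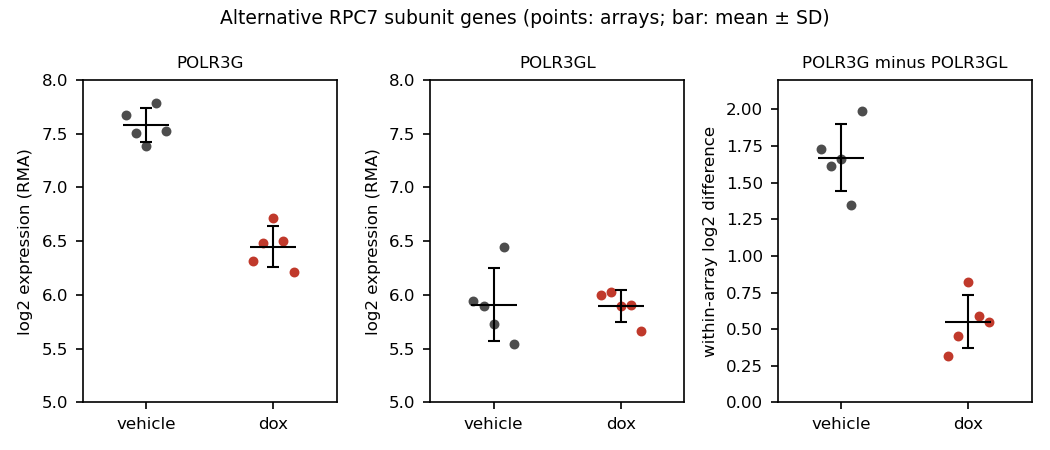
Log2 expression of POLR3G and of POLR3GL, and their difference on the same array (y axes), by group (x axes). Points are arrays, bars the mean and SD of 5. POLR3G and the difference separate the groups without overlap, while POLR3GL covers 5.54 to 6.45 with vehicle and 5.66 to 6.03 with doxycycline.

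No other subunit particular to RNA polymerase III was called. POLR3C, which sits beside POLR3G in the same trimer, read 8.96, 9.05, 9.15, 8.85 and 8.97 with vehicle and 8.84, 8.60, 8.70, 8.69 and 8.80 with doxycycline. The groups were apart by a narrow margin, and the change of -0.27 (interval -0.51 to -0.04) gave an adjusted p of 0.141. It was called with trended and robust moderation (0.0495) and with an unmoderated test that allows unequal variances (0.0482). The third subunit of the trimer, POLR3F, changed by 0.01 (adjusted p = 0.991). The catalytic core subunit POLR3A had the same mean of 7.43 in both groups (interval -0.34 to 0.33), and its partner in the core, POLR3B, changed by -0.19 (0.474). POLR3D and POLR3E, which form a pair on the enzyme's lobe, changed by -0.02 (0.948) and 0.17 (0.512). POLR3K, used for RNA cleavage and termination, changed by -0.12 (0.73). Of the 9 measured RNA polymerase III subunits, POLR3G was thus the 1 called, 11.1% beside 11.0% of all genes. The median change of these subunits was -0.02.

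Among the RNA polymerase I subunits, POLR1B (TC0200008923.hg.1), the second largest and part of the catalytic core, read 5.93, 6.11, 5.96, 6.12 and 6.03 with vehicle and 5.57, 5.50, 5.76, 5.41 and 5.38 with doxycycline. It was lower on every doxycycline array, and array 3 was the highest of them. The change was -0.50, with an interval of -0.75 to -0.26 (means 6.03 ± 0.09 and 5.52 ± 0.15, adjusted p = 0.0138). The call was lost without doxycycline arrays 4 and 5 together (-0.42, adjusted p = 0.0549) and with the host-cell covariate (-0.44, adjusted p = 0.0668). POLR1A, the largest subunit and its partner in the core, changed by -0.04 (interval -0.32 to 0.25, adjusted p = 0.908).

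POLR1E (TC0900012124.hg.1) and POLR1G form a pair on RNA polymerase I that acts in initiation and elongation. POLR1E read 7.04, 7.15, 7.06, 7.01 and 7.27 with vehicle and 6.34, 6.80, 6.33, 6.30 and 6.85 with doxycycline. The groups did not overlap, and doxycycline arrays 2 and 5 lay closest to vehicle. The change was -0.58, with an interval of -0.90 to -0.27 (means 7.11 ± 0.11 and 6.52 ± 0.28, adjusted p = 0.0208). It missed the threshold with the unmoderated test (0.0678) and without vehicle array 5 (-0.54, adjusted p = 0.0509). POLR1G changed by 0.31 (interval -0.19 to 0.80, adjusted p = 0.463). Its doxycycline arrays ran from 6.41 to 6.91 apart from array 5 at 7.81, and without that array the change was 0.089.

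POLR1F, the stalk subunit through which RNA polymerase I meets RRN3, was the other member higher on every doxycycline array. It read 7.05, 6.91, 6.53, 7.07 and 6.89 with vehicle and 7.15, 7.12, 7.51, 7.75 and 7.38 with doxycycline. The change of 0.49 (interval 0.15 to 0.83) missed the threshold (adjusted p = 0.0659) and passed it with trended and robust moderation (0.0316) or with the dimmest 30% of genes removed (0.0407). POLR1H, a small subunit for RNA cleavage, changed by 0.05 (0.887). Of the 6 RNA polymerase I subunits, 2 were thus called, both lower, 33.3% beside 11.0% of all genes called in either direction. Another 3 had a change above 0, none of them called.

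None of the 5 RNA polymerase I factors was called by limma, and 1 had an unadjusted p under 0.05. UBTF, which coats the active ribosomal DNA, changed by -0.05 (interval -0.29 to 0.19, adjusted p = 0.831). RRN3, which makes the enzyme competent to initiate, changed by 0.02 (interval -0.24 to 0.28, adjusted p = 0.94). SL1, the complex of TBP and TAF subunits at the ribosomal promoter, had 3 measured TAFs with a median change of -0.35. TAF1A changed by -0.55 (interval -0.99 to -0.12, adjusted p = 0.102), TAF1B by -0.35 (0.246) and TAF1C by -0.16 (0.638). TAF1C divided the doxycycline group, with arrays 1 to 3 at 6.11, 6.28 and 6.31, below the vehicle range of 6.58 to 6.81, and arrays 4 and 5 at 6.69 and 7.11. It was called when those 2 arrays were left out (-0.43, adjusted p = 0.0477). They hold the highest TAF1C values of the doxycycline group, so a larger fall was fixed in advance and this call adds no support.

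POLR2H (TC0300009706.hg.1), a small subunit found in all 3 enzymes, read 8.72, 8.46, 8.47, 8.46 and 8.57 with vehicle and 7.71, 7.80, 8.03, 7.79 and 7.85 with doxycycline. The groups were separated by more than the range of either. The change was -0.70, with an interval of -0.94 to -0.46 (means 8.54 ± 0.11 and 7.83 ± 0.12, adjusted p = 0.0019), and it was called under all 22 alternatives. The other subunits common to the enzymes were not called. POLR2E changed by 0.06 (adjusted p = 0.834), POLR2K by 0.08 (0.74) and POLR2L by 0.27 (0.312). POLR1C and POLR1D, the assembly pair of RNA polymerases I and III, changed by -0.07 (0.777) and -0.38 (0.182). Of the 4 measured subunits common to all enzymes, POLR2H was thus the 1 called, 25.0% beside 11.0% of all genes. The other 3 had a change above 0.

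Changes of the 9 measured RNA polymerase II members ran from -0.31 (POLR2J4) to 0.24. This was the narrowest range of the 3 enzymes, but also the smallest set, and a range tends to widen with more members. POLR2A, the largest subunit, whose tail is phosphorylated through the transcription cycle, read 9.14, 9.10, 9.29, 9.26 and 9.26 with vehicle and 8.96, 8.91, 9.05, 8.97 and 9.01 with doxycycline. It was lower on every doxycycline array by a small amount, a change of -0.23 with an interval of -0.45 to -0.01 (adjusted p = 0.184). The unmoderated test called it (adjusted p = 0.0332). Its partner in the core, POLR2B, changed by 0.16 (0.423). POLR2C and POLR2J, which form the assembly pair of this enzyme, changed by -0.28 (0.175) and 0.11 (0.56). The stalk subunits POLR2D and POLR2G changed by 0.24 (0.342) and -0.05 (0.87), and POLR2I by -0.01 (0.989). POLR2J3 changed by 0.24 (0.197) and POLR2J4 by -0.31 (0.368). POLR2J, POLR2J3 and POLR2J4 are near-identical copies whose probe sets may share signal, so their separate values are uncertain. Whether POLR2J4 makes a working subunit was not tested, and apart from it the lowest change was that of POLR2C, at -0.28.

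**Figure D3:**
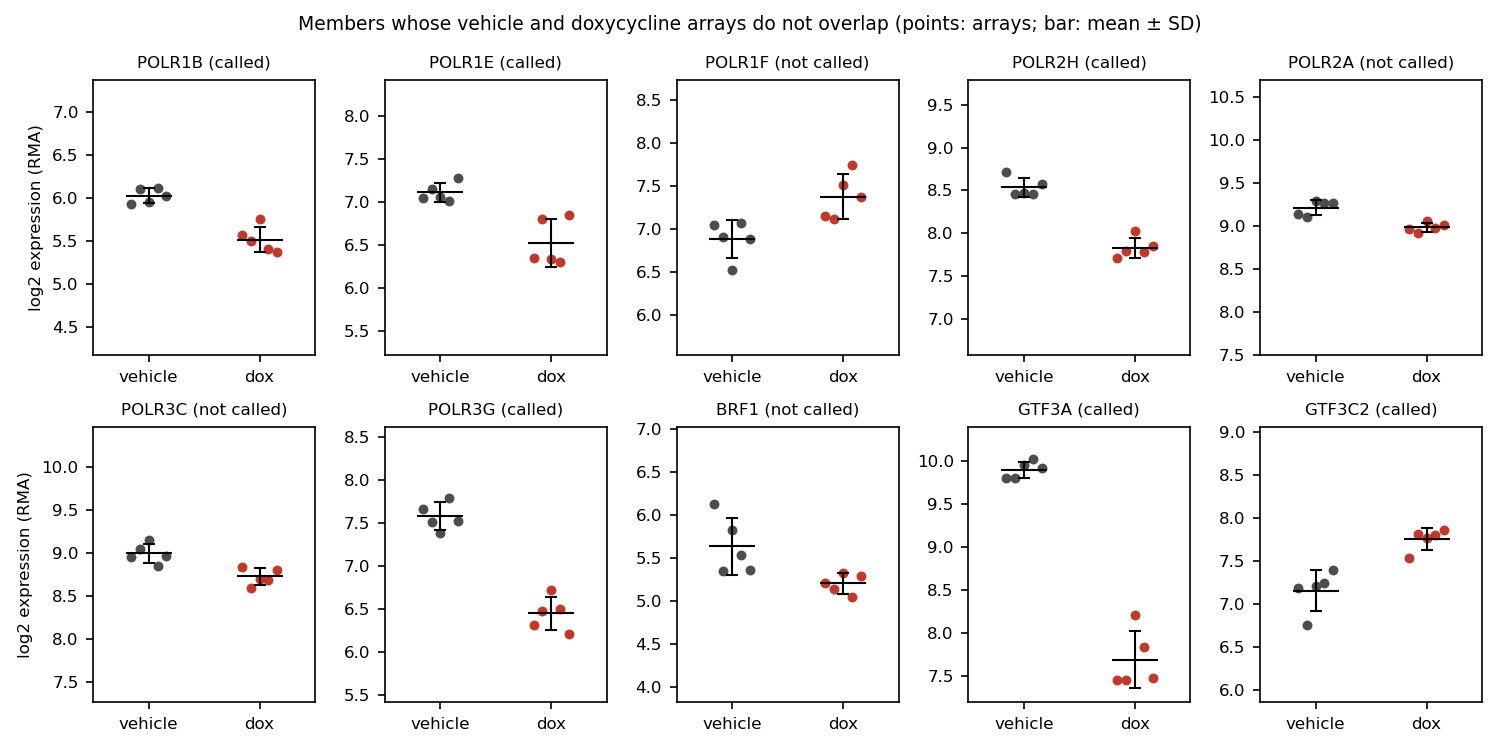
Log2 expression (y axes) on the 5 vehicle and 5 doxycycline arrays (x axes) of the 10 members whose groups do not overlap. Points are arrays, bars the mean and SD, and each panel spans its own range of equal height. GTF3A, POLR3G and POLR2H are the widest apart, and in POLR2A, POLR3C, BRF1 and POLR1F the change was not called.

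Over the 41 members that were not called, changes ran from -0.55 to 0.49 and the bounds of their intervals from -0.99 to 0.83, and 8 had an unadjusted p under 0.05. A miss of the threshold does not show that these genes were the same in both groups. On the log2 scale the SD was larger with doxycycline in 34 of the 47 members (72.3%), beside 64.2% of all genes. The median SD of the members was 0.14 with vehicle and 0.22 with doxycycline, and that of all genes 0.23 and 0.28. Doxycycline array 5 was the highest of its group in 19 members, and vehicle array 2 the lowest of its group in 18. The shares over all genes were not counted, so these counts cannot be read as particular to the members. The median deviation of the RNA polymerase I members from their vehicle means was -0.23, -0.18, -0.06, -0.11 and -0.10 on doxycycline arrays 1 to 5, beside -0.09 to 0.12 on the vehicle arrays. For RNA polymerase III it was -0.14, -0.09, -0.03, -0.20 and 0.07, beside -0.04 to 0.03. The doxycycline arrays were below 0 in 5 of 5 cases for RNA polymerase I and in 4 of 5 for RNA polymerase III, and the ranges of the groups overlapped for both.

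**Figure D4:**
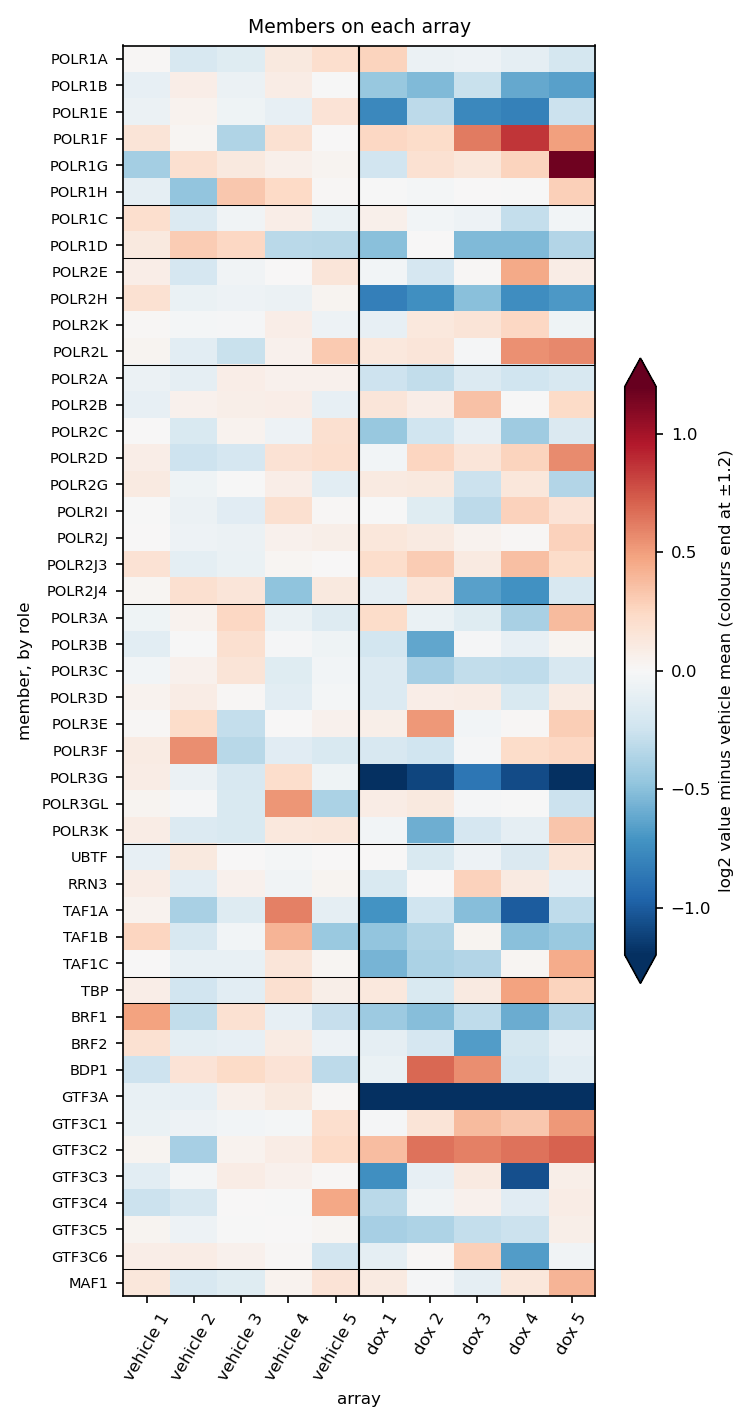
Log2 value minus the vehicle mean of the gene (colour, blue lower and red higher, ending at ±1.2) for each of the 47 members (rows, by role) on each array (columns). GTF3A and POLR3G are blue on all doxycycline arrays. Doxycycline array 5 holds the highest value of its group in 19 members, a count that was not made over all genes.

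The genes that work with these enzymes were taken from 8 lists. None of the 16 listed transcripts of RNA polymerase III themselves was measured, and ribosomal RNA is not in the lists, so the products of RNA polymerases I and III were not analysed here. Of 15 measured partners of RNA polymerase I at the ribosomal DNA, 2 were called lower and 1 higher, 20% beside 11.0% of all genes. At an unadjusted p under 0.05, 6 were lower and 1 higher. The median change of the list was -0.12, beside 0.02 for all genes. NOLC1, a nucleolar protein that binds RNA polymerase I, read 9.20 to 9.45 with vehicle and 8.49 to 8.81 with doxycycline (change -0.67, interval -0.92 to -0.41, adjusted p = 0.00345). TCOF1, its nucleolar partner treacle, fell by 0.59 (adjusted p = 0.0319). The TCOF1 call was lost without vehicle arrays 1, 2, 4 or 5 (adjusted p = 0.0664, 0.071, 0.0723 and 0.0585) and without doxycycline arrays 4 or 5 (0.0667 and 0.0572). It was also lost with the host-cell covariate (0.147), with the unmoderated test (0.0989) and without doxycycline arrays 4 and 5 together (0.095), where the change was -0.35. UTP15, of the complex that links ribosomal DNA transcription to early processing, rose by 0.46 (adjusted p = 0.0202). The other measured subunits of that complex were not called and most went the other way. UTP4 changed by -0.32 (adjusted p = 0.106), NOL11 by -0.29 (0.189), WDR75 by -0.26 (0.188) and HEATR1 by 0.06 (0.809).

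Of 28 measured general factors of RNA polymerase II, limma called 3 higher and 0 lower (3 lower at an unadjusted p under 0.05), with a median of 0.03. The 3 called are 10.7% of the list, beside 11.0% of all genes. They are TAF subunits of TFIID, the complex that recognises the core promoter with TBP, and the 9 other TAFs of the list were not called, with changes from -0.27 to 0.21. TAF13 read 7.47 to 8.07 with vehicle and 8.32 to 8.69 with doxycycline (change 0.75, adjusted p = 0.00585). TAF10 rose by 0.52 (0.0148) and its partner TAF8 by 0.60 (0.0267). With the host-cell covariate TAF10 and TAF8 missed the threshold (0.0566 and 0.0529). TAF8 also missed it without vehicle arrays 2 or 3 (0.0562 and 0.0681), without doxycycline arrays 1 or 4 (0.06 and 0.0591), without doxycycline arrays 4 and 5 together (0.0998) and with the unmoderated test (0.0567).

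Mediator, which bridges activators and RNA polymerase II, had 1 of 27 measured subunits higher, 1 lower and a median of 0.11, the 2 called being 7.41% of the list beside 11.0% of all genes. MED19 rose by 0.52 (adjusted p = 0.0207) and CCNC, the cyclin of its kinase module, fell by 0.63 (0.0214). The MED19 call was lost without vehicle arrays 2 or 3 (0.0511 and 0.0567), without doxycycline arrays 4 and 5 together (0.0758) and with the host-cell covariate (0.0656). That of CCNC was lost without vehicle array 4 (0.0563) or doxycycline array 1 (0.0508), with the covariate (0.0726) and with the unmoderated test (0.0512). Pausing and elongation factors had 1 of 22 lower, 1 higher (9.09% in all) and a median of 0.05. NELFCD, a subunit of the complex that holds RNA polymerase II near the promoter, read 8.27 to 8.61 with vehicle and 7.46 to 7.76 with doxycycline (change -0.82, interval -1.07 to -0.56, adjusted p = 0.000959). ELL2, an elongation factor, rose by 0.67 (0.0179), and this call was lost with the covariate (0.0903) and with the unmoderated test (0.0697).

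Factors for assembly and nuclear import of the polymerases had 2 of 14 measured genes called, 14.3% beside 11.0% of all genes. Both were lower, 0 were higher (also 0 at an unadjusted p under 0.05), and the median was -0.03. URI1, a prefoldin-like protein of the assembly chaperone, fell by 0.75 (adjusted p = 0.0127), a call lost with the covariate (0.068) and with the unmoderated test (0.0768). PIH1D1, of the same chaperone, fell by 0.42 (0.0355), and the call was lost on leaving out any one array except doxycycline array 5 (0.0531 to 0.0797), doxycycline arrays 4 and 5 together (0.0557) or with the covariate (0.0829). Of 7 factors of small nuclear RNA promoters, which serve RNA polymerases II and III, 1 was called, 14.3% beside 11.0% of all genes. It was higher, and the median of the list was -0.03. SNAPC5, a subunit of the complex that binds these promoters, read 6.98 to 7.49 with vehicle and 8.11 to 8.56 with doxycycline (change 1.02, interval 0.72 to 1.33, adjusted p = 0.000794). Mitochondrial transcription, by an unrelated enzyme, had a median of -0.01 and 1 of 6 genes called, which was lower (16.7% beside 11.0% of all genes). That gene is TFB1M, which methylates mitochondrial ribosomal RNA, with a change of -0.52 (0.0487). Its groups overlapped, and the call was lost on leaving out any one array except vehicle array 2 (0.0567 to 0.119), doxycycline arrays 4 and 5 together (0.0836), with the covariate (0.0989) and with the unmoderated test (0.106).

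**Figure D5:**
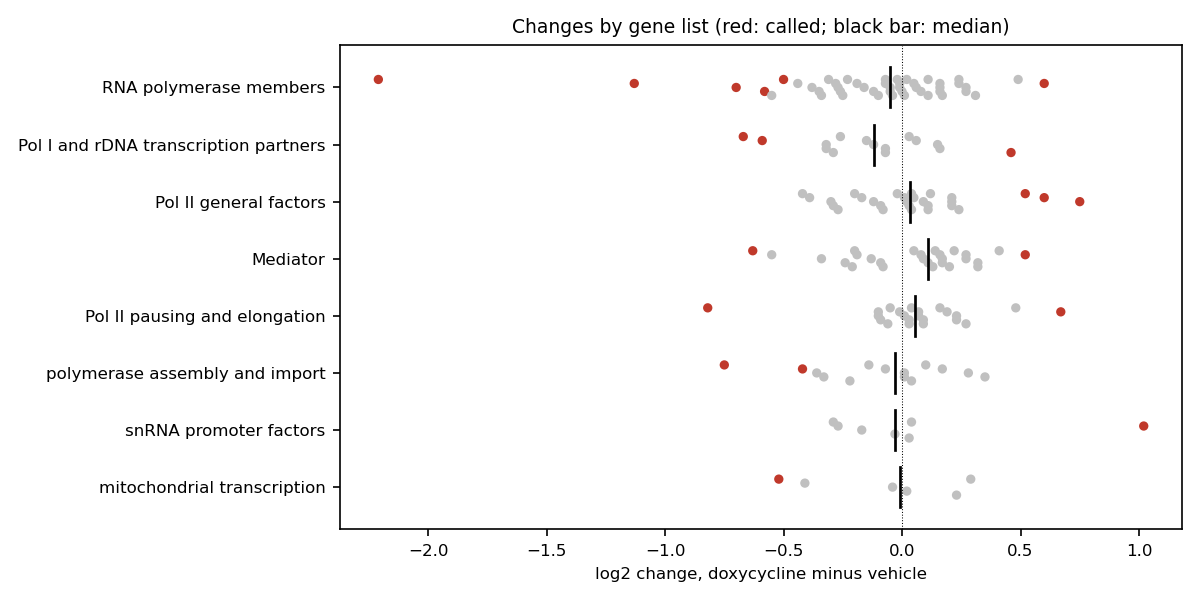
Log2 change, doxycycline minus vehicle (x axis), of each measured gene in the members and in the 7 lists with a measured gene (y axis). Red points are called, grey points are not, and black bars are medians, which lie between -0.12 and 0.11.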

How the data were processed

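Frozen tumours gave total RNA, which was biotin-labelled and run on Affymetrix arrays, 1 per tumour, per the labels' protocols and the series design. The authors deposited log2 expression values, which RMA produced per the submitters' processing notes. The array model, like the RMA version and genome build, is not given in the sources used here. The table lists 18569 probe sets. A single gene symbol was annotated for 17511 of them, several for 0 and none for 1058, and every Entrez identifier matched RefSeq's gene table. The brightest probe set stood for each of 17 genes that had several, none of them a member, leaving 17492 genes.

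A linear model with group as its term was fitted over all 10 arrays in limma 3.58.1 (lmFit and eBayes, R 4.3.3). Tests were two-sided, and p-values were adjusted by Benjamini and Hochberg's method over the whole table, with calls under 0.05. Array number limits the precision. Tested on simulated data with 17492 genes, the procedure recovered 20.9% of changes of 0.5, 65.7% of changes of 1 and 95.5% of changes of 2 (log2). It made 10 false calls. The simulation changed only 67, 67 and 66 genes by these amounts, with equal SD in both groups and independent noise. In the data 11.0% of genes were called and 64.2% had the larger SD with doxycycline, so these rates need not hold for this comparison.

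The members and lists were chosen with earlier results of these data known. Every array's value is given for members that were called or whose groups do not overlap. From each list, called genes are named, up to 4 with the smallest p. WDR92 and DNAAF10, both listed, are names of 1 gene. There were 22 alternatives: a block for the replicate number, array weights, trended and robust moderation, all probe sets or their mean, quantile normalization repeated, centring on the median, dropping the dimmest 30% of genes, a host-cell marker score as covariate, an unmoderated test allowing unequal variances, a 1.5-fold minimum, and leaving out each array or doxycycline arrays 4 and 5 together. Promoter sequences are RefSeq's (GRCh38.p14).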

Additional observations from a re-analysis of the deposited data

Results flagged for a closer look

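Over the members, the POLR3G minus POLR3GL difference, the called genes of the lists, the melanocyte lineage markers and the genes that handle 5S ribosomal RNA, 156 groups of 5 arrays were checked for 1 array far from the others, by its gap to the nearest other array over the range of the group. The gap passed Dixon's 95% value of 0.71 in 13 of them, 8 of which were doxycycline groups, and chance passes about 1 in 20. POLR1H was highest on doxycycline array 5, at 7.78 beside 7.50 for the nearest array (ratio 0.919). BRF2 was lowest on doxycycline array 3, at 5.08 beside 5.54 (0.801). TAF1B was highest on doxycycline array 3, at 6.02 beside 5.62 (0.741). TAF10 was highest on doxycycline array 4, at 10.42 beside 10.08 (0.829). LYZ, a macrophage marker, was lowest on doxycycline array 5, at 6.57 beside 7.22 (0.774). The melanocyte lineage markers S100B and MIA were also lowest on that array, S100B at 5.06 beside 7.21 (0.889) and MIA at 7.69 beside 9.23 (0.801). CSPG4, another such marker, was lowest on doxycycline array 4, at 6.41 beside 6.73 (0.761). Among the vehicle arrays, GTF3C1 was highest on array 5, at 6.94 beside 6.72 (0.80), and GTF3C6 was lowest there, at 6.83 beside 7.07 (0.766). POLR1G was lowest on vehicle array 1, at 6.23 beside 6.68 (0.731). POLR2J4 was lowest on vehicle array 4, at 5.12 beside 5.63 (0.758). HEATR3 was lowest on vehicle array 2, at 6.82 beside 7.03 (0.747).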

How the results depend on the processing

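Of the 47 members, 40 kept their side of the threshold under all 22 alternatives and 7 did not. The 5 members called lower became 3 with a minimum change of 1.5-fold, and the 1 called higher became 2 with trended and robust moderation or with the dimmest 30% of genes removed, and 0 without doxycycline arrays 4 and 5. The 2 RNA polymerase I members called lower became 1 with the host-cell covariate or the unmoderated test, 0 with the minimum of 1.5-fold, and 1 to 2 on leaving out single arrays. The 0 RNA polymerase I members called higher became 1 with trended moderation and with dim genes removed. the unmoderated test called 1 RNA polymerase II member lower in place of 0. Without doxycycline arrays 4 and 5 the 1 RNA polymerase III member called higher became 0. With the replicate block the counts of members stayed at 5 lower and 1 higher, and those of all genes were 886 and 755 in place of 1041 and 880. The deviations of arrays of the same number from their group means had correlations of -0.063 to 0.191. The labels give no pairing by number and these values do not show one, but they cannot exclude it. Among named partners, the block ended the calls of TCOF1 (0.0596), UTP15 (0.0563), CCNC (0.057) and PIH1D1 (0.078). The median of all genes moved by at most 0.016 under any alternative. No called member changed sign, and 15 others did, for causes that were not tested, all but POLR1G (0.31) with changes between -0.10 and 0.11. With the covariate the changes were 0.075 for POLR1A, 0.018 for POLR1C, -0.024 for POLR1G, 0.043 for POLR2G, -0.14 for POLR3F and 0.18 for POLR3GL. Without doxycycline arrays 4 and 5 they were 0.047 for POLR1A, -0.006 for POLR1H, -0.074 for POLR2E, -0.15 for POLR3F, 0.065 for POLR3GL, 0.064 for GTF3C6 and -0.005 for MAF1. Array weights gave -0.007 for POLR1H, -0.018 for POLR3F and 0.001 for POLR3GL, median centring gave 0.002 for POLR2I and 0.003 for POLR3A, and the second quantile normalization gave 0.009 for POLR3GL. On leaving out single arrays the changes ran from -0.11 to 0.016 for POLR1A, -0.066 to 0.13 for POLR1H, -0.034 to 0.13 for POLR2E, -0.096 to 0.026 for POLR2G, -0.076 to 0.072 for POLR2I, -0.10 to 0.092 for POLR3A, -0.050 to 0.024 for POLR3D, -0.078 to 0.15 for POLR3F, -0.11 to 0.12 for POLR3GL, -0.041 to 0.072 for RRN3, -0.14 to 0.042 for GTF3C4 and -0.20 to 0.037 for GTF3C6.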

Other observations

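Genes that handle 5S ribosomal RNA after it is made were listed after the fall of GTF3A had been seen. Of 5 such genes, RPL11, RPF2, RRS1 and HEATR3 were measured. RPF2, a factor that brings 5S ribosomal RNA into the large ribosomal subunit, read 10.11, 10.10, 10.32, 10.22 and 9.94 with vehicle and 9.63, 9.65, 9.82, 9.80 and 9.63 with doxycycline. The groups did not overlap, and RPF2 fell by 0.43 (95% interval -0.68 to -0.19, adjusted p = 0.0286 with limma). The call was lost on leaving out vehicle arrays 1, 2, 3 or 4 (adjusted p = 0.0596, 0.0502, 0.0793 and 0.0707) or doxycycline arrays 1, 2 or 5 (0.0614, 0.0608 and 0.0505), doxycycline arrays 4 and 5 together (0.058), with the host-cell covariate (0.0903) and with the replicate block (0.0519). RRS1, the partner of RPF2, changed by 0.36 (interval 0.08 to 0.63, adjusted p = 0.0958). RPL11, a ribosomal protein that binds 5S ribosomal RNA, changed by -0.17 (0.402), and HEATR3, which escorts it to the nucleus, by 0.15 (0.501).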
